A study of Mus musculus with 12 samples.

Results

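Peak summits of chromatin accessibility were described around 10 genes that are switched on within minutes when neurons fire or cells meet a growth factor or stress: Egr1, Egr3, Nr4a1, Npas4, Maff, Crem, Dusp1, Arc, Ier2 and Ier3. They are 10 of the 21887 protein-coding genes placed here. A summit was taken when it lay inside one of these genes or within 50 kb of either end, which gave 281 of the 155267 summits in all. Summits within 200 bp of the next were joined to 1 locus, and the 281 summits formed 112 of 78381 loci.

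The summits come from ATAC-seq, in which a transposase cuts and tags open DNA, of whole mouse dorsal root ganglia (DRG) of lumbar levels L4 to L6, with 6 ganglia per extraction. The groups were Silc1-/- mice after sciatic nerve injury, Silc1-/- mice after a sham operation, wild-type mice after the injury and wild-type mice after the sham operation, with 3 libraries each. The injury was a crush of the nerve with forceps at mid-thigh. The labels do not tie the groups to a strain. Silc1 is a long noncoding RNA, and how the allele was made, the age of the mice and the time after injury are not given in the labels. One list of summits per group was analysed, so no value has a spread between animals and no difference between groups could be tested. The ganglia hold neurons, satellite glia, Schwann cells, vascular cells and immune cells, so fewer cells of a type with open chromatin and less open chromatin per cell cannot be told apart.

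Early response genes are transcribed without new protein synthesis, from factors that already sit in the cell. Calcium entry and MAP kinase signalling activate CREB, which binds the cAMP response element, and SRF with its ternary complex partners, which bind the CArG box. Their products are mostly transcription factors that act on later genes, together with phosphatases and other proteins that end the signal. In injured sensory neurons such genes belong to the first transcriptional response to a lesion of the axon.

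Promoter windows show which of these control letters the genes carry. The RefSeq promoter table (GRCm38.p6, the same build as mm10) gives the 250 bases before and 50 bases after an annotated start. It matched 5 of the 10 genes, with 7 windows, and the windows of Nr4a1, Dusp1, Maff and Npas4 with the most matches are printed 5′ to 3′ on the strand of the gene. Capitals mark every match on either strand to the cAMP response element TGACGTCA, to its core TGACG, which the full element holds on both strands, or to the EGR site GCGTGGGCG.
Nr4a1, chr15:101266596-101266895, plus strand: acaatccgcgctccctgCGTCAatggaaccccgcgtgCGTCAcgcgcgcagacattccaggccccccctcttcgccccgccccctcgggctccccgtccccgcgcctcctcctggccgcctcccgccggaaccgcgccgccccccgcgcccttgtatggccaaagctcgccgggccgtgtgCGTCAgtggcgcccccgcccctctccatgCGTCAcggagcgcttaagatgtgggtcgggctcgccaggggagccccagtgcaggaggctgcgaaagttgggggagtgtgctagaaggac
Dusp1, chr17:26508423-26508722, minus strand: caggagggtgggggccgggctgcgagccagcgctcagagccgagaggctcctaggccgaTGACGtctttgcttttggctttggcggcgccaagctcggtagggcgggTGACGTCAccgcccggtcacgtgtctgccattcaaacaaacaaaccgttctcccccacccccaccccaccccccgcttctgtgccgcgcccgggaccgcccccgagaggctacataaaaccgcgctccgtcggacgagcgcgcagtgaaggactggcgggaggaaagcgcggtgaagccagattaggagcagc
Maff, chr15:79347270-79347569, plus strand: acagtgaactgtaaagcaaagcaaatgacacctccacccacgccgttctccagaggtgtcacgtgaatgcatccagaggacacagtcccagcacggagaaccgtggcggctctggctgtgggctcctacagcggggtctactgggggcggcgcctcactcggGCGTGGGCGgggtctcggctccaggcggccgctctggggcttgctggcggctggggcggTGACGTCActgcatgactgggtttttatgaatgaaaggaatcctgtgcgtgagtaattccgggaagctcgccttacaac
Npas4, chr19:4989922-4990221, minus strand: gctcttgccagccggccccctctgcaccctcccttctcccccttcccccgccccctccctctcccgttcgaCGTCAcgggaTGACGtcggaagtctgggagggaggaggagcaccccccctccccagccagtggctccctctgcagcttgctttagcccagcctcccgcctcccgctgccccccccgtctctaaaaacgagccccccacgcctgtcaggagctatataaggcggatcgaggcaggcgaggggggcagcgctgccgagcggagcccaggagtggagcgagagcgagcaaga
The Nr4a1 window held 4 cores, a number that 0.231% of 32851 windows of all genes reach. The core contains a C followed by a G, and this window held 35 such pairs against a median of 7 over all windows. The printed windows of Dusp1, Maff and Npas4 held 31, 21 and 21. The Dusp1 window held 1 full element and 3 core positions, of which all but 1 lie in the full element, and the Maff window held 1 full element and 1 EGR site. Npas4 had 2 cores on opposite strands, close to each other. Of all windows, 1.79% held the full element, 20.8% a core, 5.01% at least 2 cores, 1.03% at least 3 and 0.612% the EGR site. The Ier3 window and the first Maff window held none of these, the third Maff window held 1 core, and the AP-1 site TGANTCA and the CArG box were in none of the 7, against 7.81% and 1.63% of all windows. A match describes letters only and shows no bound factor.

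Where the summits fell in these windows differed between the genes. The Nr4a1 window held a summit in every list, at 1 base before the start in the Silc1-/- injured list, 22 in the Silc1-/- sham list, 141 in the wild-type injured list and 62 in the wild-type sham list. In the wild-type injured list the summit therefore lay farthest upstream, and the 4 positions stayed in 1 locus. The printed Maff window had a summit in the Silc1-/- sham, wild-type injured and wild-type sham lists and none in the Silc1-/- injured list. The Dusp1 window held a summit in the Silc1-/- injured and Silc1-/- sham lists, while the nearest wild-type summits lay outside it, 341 bp (injured) and 253 bp (sham) from the annotated start. The sham lists differ here only by the window edge at 26508722. The Silc1-/- sham summit lay at 26508717 and the wild-type sham summit at 26508725, in the same locus. The Npas4 window held none in any list. All 4 printed windows are rich in G and C, at 72.3% for Nr4a1, 67.0% for Dusp1, 61.3% for Maff and 69.3% for Npas4, against a median of 52.7% over all windows.

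Most of the 10 genes had an open end. A summit within 1 kb of either gene end was present for 6 genes in the Silc1-/- injured list, 9 in the Silc1-/- sham list, 8 in the wild-type injured list and 8 in the wild-type sham list. Over all protein-coding genes the shares were 45.6% in the Silc1-/- injured list, 50.9% in the Silc1-/- sham list, 51.9% in the wild-type injured list and 46.2% in the wild-type sham list. Egr1, Ier2, Ier3, Arc, Dusp1 and Crem had such a summit in all 4 lists, that is 6 of 10, where 40.8% of protein-coding genes did. Npas4 had none in any list, Egr3 had one in the Silc1-/- sham list alone, and Nr4a1 and Maff lacked one in the Silc1-/- injured list alone. These are ends of the gene span, and annotated starts of Nr4a1, Npas4 and Maff lie inside that span. Of the 5 genes with a promoter window, 2 in the Silc1-/- injured list and 4 in each other list had an end summit. Counted from annotated starts, the genes numbered 4 for Silc1-/- injured, 4 for Silc1-/- sham, 5 for wild-type injured and 3 for wild-type sham ganglia. The shares over all genes above are for either gene end, and no share for annotated starts is given here. The count at either end depended on weak summits: with a score of at least 10, 3 genes in the Silc1-/- injured list, 3 in the Silc1-/- sham list, 5 in the wild-type injured list and 3 in the wild-type sham list kept one. The lists held 8139, 11098, 13308 and 9255 summits of that score in the same order, the most in the wild-type injured list. The share of all protein-coding genes at that score is not given here, so the gene counts at that score have no background. A score is the authors' −log10 value of a p-value or q-value for the peak, which depends on depth, and it is used to place summits within their own list. The lists differ in length, with 35815 summits for Silc1-/- injured, 48332 for Silc1-/- sham, 43841 for wild-type injured and 27279 for wild-type sham ganglia. Read depth is not in the files.

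**Figure D1:**
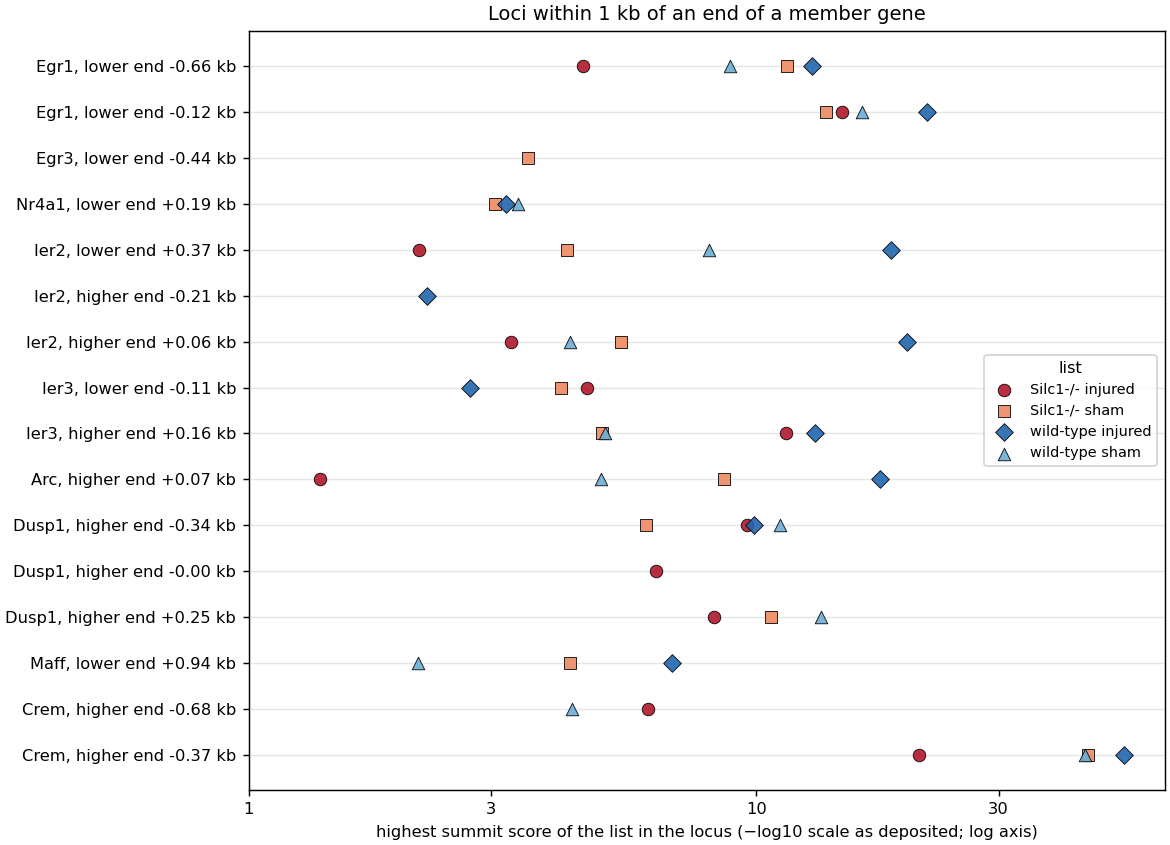
Scores of the 16 loci that lie within 1 kb of an end of one of the genes, on a log axis of the deposited −log10 scale, with 1 symbol per list. A missing symbol means that the list has no summit in the locus. The Arc locus, both Ier2 loci that all lists hold and the Crem locus at −0.37 kb have their lowest score in the Silc1-/- injured list. Of the other end loci in all 4 lists, the Egr1 locus at −0.12 kb, the Dusp1 locus at −0.34 kb and the higher end of Ier3 have theirs in the Silc1-/- sham list. Scores of different lists also differ through depth.

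Egr1 encodes a zinc finger transcription factor induced by growth factors and activity (gene ID 13653, chr18:34861207-34864956). It had a cluster of 3 loci within 1.5 kb of its lower end, each of them in all 4 lists. The locus 0.12 kb outside the end scored 14.7 in the Silc1-/- injured list, 13.7 in the Silc1-/- sham list, 21.7 in the wild-type injured list and 16.1 in the wild-type sham list. Among the loci held by all 4 lists these are percentiles 69.9, 51.6, 57.1 and 64.2 in the same order, so this site kept a middle to upper rank in each list. The locus at −0.66 kb scored 4.55 in the Silc1-/- injured list, 11.5 in the Silc1-/- sham list, 12.9 in the wild-type injured list and 8.87 in the wild-type sham list. A further locus 1.3 kb outside the end scored 4.15, 14.5, 18.9 and 14.0 in that order. At both of these outer sites the Silc1-/- injured list had its summit low among its shared loci, at percentiles 18.2 and 14.0, whereas the other lists placed them between 37.7 and 58.8. The highest-scoring site away from the gene lay 22.57 kb past the higher end and was held by all 4 lists, with scores of 11.2 for Silc1-/- injured, 21.2 for Silc1-/- sham, 23.8 for wild-type injured and 21.1 for wild-type sham ganglia.

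Egr3, which encodes a related factor induced with Egr1 and known for its part in muscle spindle innervation (gene ID 13655, chr14:70077317-70082613), had its open site outside the 1 kb window. Its only summit near an end lay 0.44 kb outside the lower end and scored 3.55 in the Silc1-/- sham list. The strongest locus lay 2.36 kb outside that end, in all 4 lists, and scored 4.45 in the Silc1-/- injured list, 15.1 in the Silc1-/- sham list, 29.7 in the wild-type injured list and 9.27 in the wild-type sham list. Its percentile was 17.8 in the Silc1-/- injured list, 56.3 in the Silc1-/- sham list, 70.0 in the wild-type injured list and 41.0 in the wild-type sham list. Injured ganglia thus ranked the site below sham ganglia in Silc1-/- and above them in wild type. A locus inside the neighbouring gene Pebp4, 20.14 kb away, had percentiles of 18.4 for Silc1-/- injured, 14.4 for Silc1-/- sham, 62.8 for wild-type injured and 37.4 for wild-type sham ganglia.

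Nr4a1 encodes an orphan nuclear receptor (Nur77) that is induced by membrane depolarisation (gene ID 15370, chr15:101253902-101274795). The highest-scoring locus near any of the genes in the Silc1-/- injured, wild-type injured and wild-type sham lists lay 7.45 kb outside its lower end, between coding genes, at position 101246456. It scored 32.2 in the Silc1-/- injured list, 35.2 in the Silc1-/- sham list, 72.4 in the wild-type injured list and 45.9 in the wild-type sham list, at percentiles 93.3, 88.8, 95.9 and 95.1. Every list therefore placed it among its strongest shared sites. The promoter locus shown above, which lies inside the annotated span of the gene, scored 12.9 in the Silc1-/- injured list, 12.1 in the Silc1-/- sham list, 16.2 in the wild-type injured list and 15.1 in the wild-type sham list. The lower end of the gene itself had weak summits, of 3.05 in the Silc1-/- sham list, 3.21 in the wild-type injured list and 3.39 in the wild-type sham list, and none in the Silc1-/- injured list.

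Npas4, a transcription factor that responds to calcium entry in neurons and little to other stimuli (gene ID 225872, chr19:4984353-5003439), was the gene without an open end. The nearest summit to either end lay 9800 bp away in the Silc1-/- injured list, 20660 bp in the Silc1-/- sham list, 2407 bp in the wild-type injured list and 20569 bp in the wild-type sham list. One summit lay inside the gene, with a score of 3.82, and only wild-type injured ganglia had it, 807 bp from the start of the printed window's transcript. That is below the median score of its list, 5.72. The summits at 9800 bp and 2407 bp lay between coding genes, and the remaining loci around Npas4 lay at or in other genes. The highest of these lay inside Slc29a2. Its scores were 5.41 for Silc1-/- injured, 15.9 for Silc1-/- sham, 27.8 for wild-type injured and 6.79 for wild-type sham ganglia.

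Maff encodes a small Maf protein, a partner of other basic leucine zipper factors (gene ID 17133, chr15:79346621-79359078). Its promoter region held 3 weak loci between 0.94 and 1.70 kb inside the lower end, none of them in all 4 lists. The printed window's locus scored 4.29 in the Silc1-/- sham list, 6.83 in the wild-type injured list and 2.16 in the wild-type sham list. The middle locus, at 1.37 kb, scored 2.43 in the Silc1-/- injured list, 2.49 in the Silc1-/- sham list and 5.03 in the wild-type sham list, and the locus at 1.70 kb had 3.08 in the wild-type injured list and 3.31 in the wild-type sham list. Each list thus had at least 1 summit in this stretch, at differing positions. The strongest locus in the neighbourhood was the end of Pla2g6, a phospholipase gene, with 19.5 in the Silc1-/- injured list, 16.6 in the Silc1-/- sham list, 37.4 in the wild-type injured list and 16.8 in the wild-type sham list.

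Crem encodes CREB-like activators and, from an inner promoter, the repressor ICER that shuts cAMP-driven genes off again (gene ID 12916, chr18:3266354-3337773). Its higher end had the highest-scoring gene-end locus of the 10 genes, 0.37 kb inside the gene. It scored 20.9 in the Silc1-/- injured list, 45.1 in the Silc1-/- sham list, 53.1 in the wild-type injured list and 44.4 in the wild-type sham list, at percentiles 82.7, 94.3, 89.0 and 94.6. The lncRNA gene Gm6225 also ends there, so the summit cannot be given to one of the genes. A second, weaker locus at 0.68 kb inside the end was in the Silc1-/- injured list with 6.12 and in the wild-type sham list with 4.32. Well inside the gene, 14.76 kb from the lower end, a locus was held by both sham lists alone, with 5.67 in the Silc1-/- sham list and 7.08 in the wild-type sham list. A wild-type injured summit of score 9.05 lay nearby, at position 3280846 against 3281112 for the wild-type sham summit, so the stretch was not without a summit after injury in wild type, and with a joining distance of 500 bp the locus is no longer one of sham lists alone.

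Dusp1 encodes a nuclear phosphatase that switches MAP kinases off (gene ID 19252, chr17:26505591-26508472). Its higher end, where the printed window starts transcription, had 3 close loci. The one 0.34 kb inside the gene was in all 4 lists, with 9.58 in the Silc1-/- injured list, 6.07 in the Silc1-/- sham list, 9.88 in the wild-type injured list and 11.1 in the wild-type sham list. The one 0.25 kb outside scored 8.25 in the Silc1-/- injured list, 10.7 in the Silc1-/- sham list and 13.4 in the wild-type sham list. The wild-type injured list had none there, and the Silc1-/- injured list had a further summit of 6.35 at the end itself. Of the 12 loci near Dusp1, 8 were in 1 list and 1 in all 4, the smallest shared share among the 10 genes. Wild-type injured ganglia alone had 4 of those 8, at scores of 1.78 to 5.63.

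Arc encodes a cytoskeletal protein of synapses that carries its own RNA between cells (gene ID 11838, chr15:74669081-74672570). It had the fewest loci, 4, of which 3 were in all 4 lists. The locus just outside its higher end scored 1.38 in the Silc1-/- injured list, 8.63 in the Silc1-/- sham list, 17.5 in the wild-type injured list and 4.94 in the wild-type sham list. As percentiles of the shared loci these were 0.12 in the Silc1-/- injured list, 30.9 in the Silc1-/- sham list, 49.0 in the wild-type injured list and 18.0 in the wild-type sham list. That of Silc1-/- injured ganglia is thus among the weakest that their list shares with the other 3. The summits lay within 154 bp of the gene end in every list, beside the end of the lncRNA gene Gm32994. The highest locus farther away, at the end of Them6, scored 7.88 in the Silc1-/- injured list, 23.4 in the Silc1-/- sham list, 27.6 in the wild-type injured list and 18.4 in the wild-type sham list.

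Ier2 encodes a small nuclear protein induced by growth factors (gene ID 15936, chr8:84661331-84662852), and its 2 ends were both open in every list. The locus 0.37 kb inside the lower end scored 2.17 in the Silc1-/- injured list, 4.23 in the Silc1-/- sham list, 18.4 in the wild-type injured list and 8.05 in the wild-type sham list. The higher end scored 3.29 in the Silc1-/- injured list, 5.41 in the Silc1-/- sham list, 19.8 in the wild-type injured list and 4.29 in the wild-type sham list. At both ends the wild-type injured list had the highest score and rank and the Silc1-/- injured list the lowest, with percentiles of 1.55 and 8.20 in the Silc1-/- injured list against 51.0 and 53.7 in the wild-type injured list. A neighbouring locus 1.27 kb past the higher end scored 5.56 in the Silc1-/- injured list, 12.6 in the Silc1-/- sham list, 25.9 in the wild-type injured list and 19.9 in the wild-type sham list. A weak summit of 2.24 inside the higher end was in the wild-type injured list alone. The highest site farther away was at the end of the calcium channel gene Cacna1a, with 11.7 in the Silc1-/- injured list, 10.9 in the Silc1-/- sham list, 29.1 in the wild-type injured list and 18.4 in the wild-type sham list.

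Ier3 encodes a stress-induced protein that modulates cell survival (gene ID 15937, chr17:35821713-35822911). Summits at its lower end, the start of its RefSeq transcript, scored 4.64 in the Silc1-/- injured list, 4.12 in the Silc1-/- sham list and 2.72 in the wild-type injured list, with none in the wild-type sham list. The higher end, which lies close to the end of Flot1, scored 11.5 in the Silc1-/- injured list, 4.97 in the Silc1-/- sham list, 13.0 in the wild-type injured list and 5.02 in the wild-type sham list. Here both injured lists ranked the locus above their sham list, at percentile 59.3 against 13.0 in Silc1-/- and 37.9 against 18.1 in wild type. The locus joins separate positions, with its highest summit at 35823067 in the wild-type injured list. The only wild-type sham summit lay at 35823304, beside a wild-type injured summit of 6.07, so the wild-type percentiles compare different positions. That sham summit alone made Ier3 open in its list. With the end of Flot1 at 35823320, it cannot be given to one of the genes. The neighbourhood is dense with genes, and its highest locus, at the end of the DNA damage response gene Mdc1, scored 17.9 in the Silc1-/- injured list, 35.4 in the Silc1-/- sham list, 40.4 in the wild-type injured list and 24.3 in the wild-type sham list. A locus inside the tubulin gene Tubb5 was held by both injured lists alone, with 2.63 in the Silc1-/- injured list and 3.82 in the wild-type injured list. Another, 8.23 kb outside the lower end of Ier3, was held by both sham lists alone, with 11.7 in the Silc1-/- sham list and 3.56 in the wild-type sham list.

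**Figure D2:**
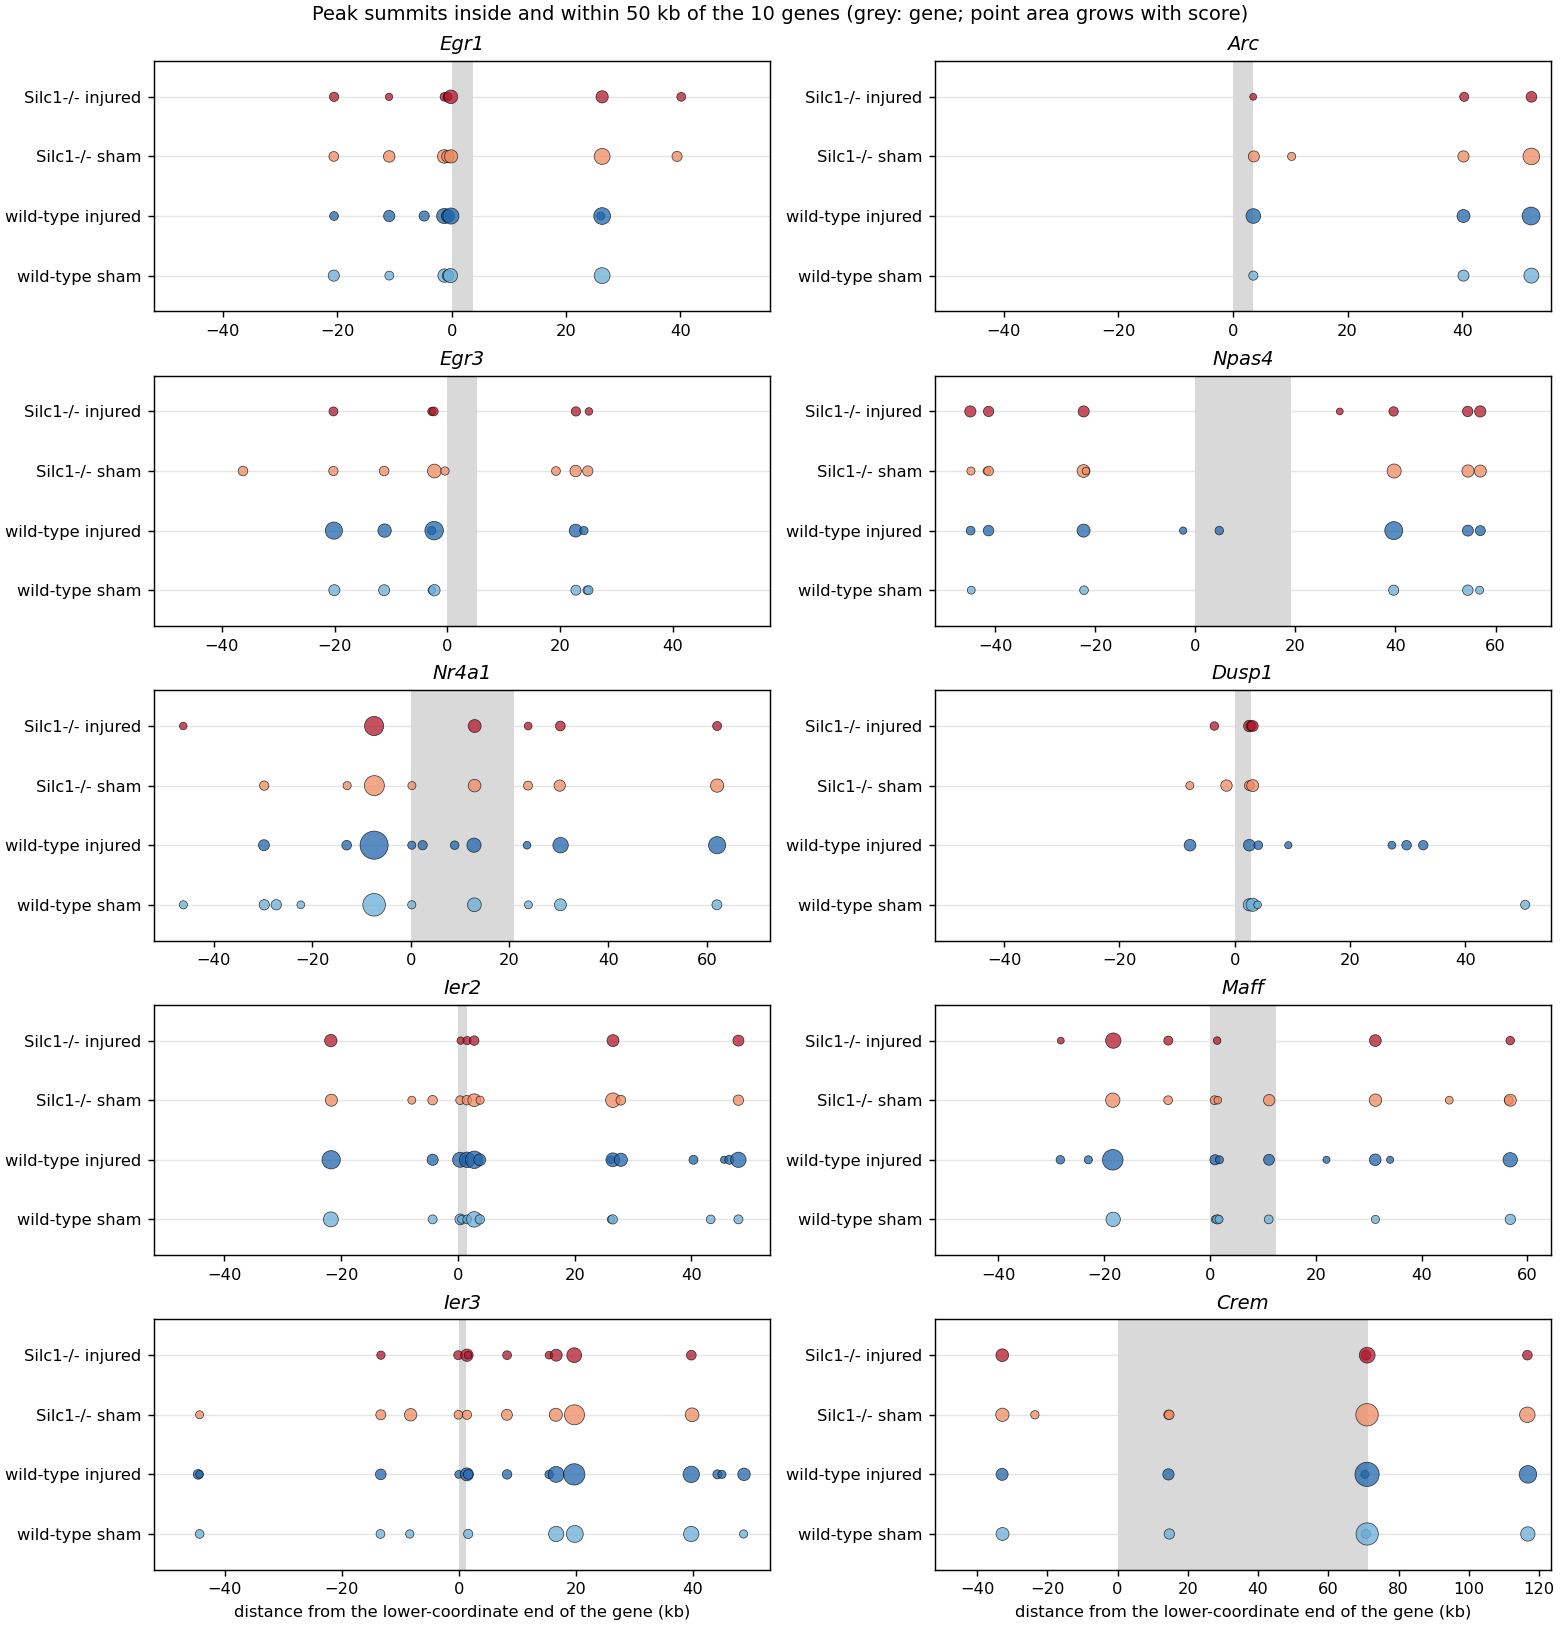
Summits of the 4 lists around the 10 genes, by distance in kb from the lower-coordinate end of each gene, with the gene shaded in grey and the area of a point growing with its score. Each panel spans the gene and 50 kb on either side, so the scales differ. The large points 7.45 kb outside Nr4a1 and at the higher end of Crem are in all 4 lists, and the Npas4 gene holds 1 small summit, in the wild-type injured list.

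Taken by position, the 112 loci were often those of other genes. Of them, 16 lay within 1 kb of an end of the 10 genes, 10 inside them, 24 at the end of another protein-coding gene, 24 inside another one and 38 between genes. All 4 lists held 40 of the 112 loci, or 35.7%, where 20.2% of the loci near any protein-coding gene were in all 4. The shares depend on the joining distance and on weak summits: joined within 50 bp they were 11.8% for the 10 genes and 8.02% for all, and at a score of at least 5 they were 29.0% and 27.4%, close to each other. Loci at ends of other genes were in all 4 lists in 15 of 24 cases and those at ends of the 10 genes in 8 of 16, against 10 of 38 between genes. A single list held 42 loci, or 37.5%, where the share was 50.9% over loci near all genes. Loci of both injured lists alone numbered 2, in Tubb5 and in Pla2g6 (1.38 in the Silc1-/- injured list and 3.82 in the wild-type injured list), with 2.49% of all such loci in that class. Both sham lists alone held 2, described above at Crem and Ier3, with 1.44% over all. Within 5 kb of an end, 7 of the 10 genes had at least 3 loci, which 22.4% of protein-coding genes reach; the median was 3 loci for the 10 genes and 1 for all genes.

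**Figure D3:**
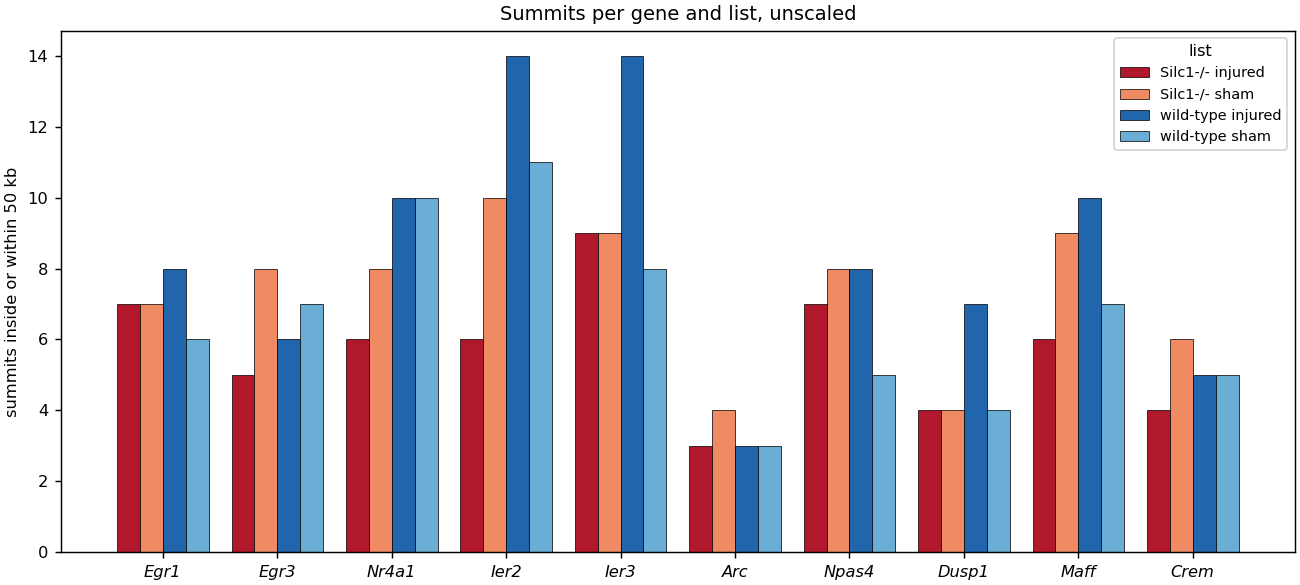
Number of summits inside or within 50 kb of each gene in each list, not scaled to list length. Bars start at 0 and have no error bars, since each group has 1 list. Ier2 and Ier3 have 14 summits each in the wild-type injured list, and Arc has 3 or 4 in every list.

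The number of summits near the genes did not follow the order of list lengths. There were 57 in the Silc1-/- injured list, 73 in the Silc1-/- sham list, 85 in the wild-type injured list and 66 in the wild-type sham list, the shortest of the 4 lists. After scaling to list length, the ratio of injured to sham was 1.05 in Silc1-/- (95% interval of counting error 0.746 to 1.49) and 0.801 in wild type (0.582 to 1.10), and both intervals include 1. Without scaling these ratios were 0.781 in Silc1-/- and 1.29 in wild type, and scaled to the summits at ends of protein-coding genes 0.918 and 1.09 in that order, so the side of 1 on which each falls depends on the scaling. With lists of equal length they were 0.807 in Silc1-/- and 0.894 in wild type, and at a score of at least 5 they were 0.794 and 0.975, both below 1. The ratio of Silc1-/- to wild type was 0.821 (0.588 to 1.15) for injured and 0.624 (0.448 to 0.870) for sham ganglia. The sham value turned to 1.11 without scaling, and was 0.947 when scaled to the summits at ends of protein-coding genes, which made up 25.6% of the Silc1-/- sham list and 38.8% of the wild-type sham list. Intervals cover counting error only, treat summits as independent and say nothing of differences between animals.

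Gene by gene, few counts passed a 1.5-fold change after scaling, on a log2 scale with a pseudocount of 1 that understates changes of genes with few summits. For Silc1-/- injured over Silc1-/- sham none of the 10 genes passed in either direction, where 14.4% of genes had more and 16.0% fewer. For wild-type injured over wild-type sham, Egr3 (6 against 7 summits, log2 ratio −0.80) and Nr4a1 (10 against 10, −0.63) had fewer after scaling and none had more, against 11.1% and 18.2% of all genes. For Silc1-/- sham over wild-type sham, Nr4a1 (8 against 10 summits, −1.04), Ier2 (10 against 11, −0.88), Dusp1 (4 against 4, −0.67) and Ier3 (9 against 8, −0.59) were lower after scaling and none higher, where 20.0% of all genes had fewer and 16.6% more. For Silc1-/- injured over wild-type injured, Ier2 (6 against 14, −0.84) had fewer and none more, against 17.5% and 13.7%. Most of these calls rest on the factor for list length. Scaled to gene-end summits, only Ier2 in the last contrast remained past 1.5-fold, where 19.2% of all genes had fewer. Without scaling, no gene was lower for injury in wild type or for Silc1-/- over wild type in sham ganglia. Of all genes, 3.51% and 4.10% were lower there. Ier3, Npas4 and Dusp1 were then higher for injury in wild type, where 43.8% of all genes were. Npas4 was higher for Silc1-/- sham over wild-type sham, where 46.5% of all genes were. The median log2 ratio over the 10 genes was 0.01 for injury in Silc1-/-, −0.28 for injury in wild type, −0.54 for Silc1-/- over wild type in sham and −0.17 in injured ganglia. Over all genes with a summit these medians were 0.02, −0.07, −0.17 and −0.02.

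Ranks of scores could be set side by side over the 40 loci that all lists hold. Their median percentile was 34.8 in the Silc1-/- injured list, 44.4 in the Silc1-/- sham list, 51.4 in the wild-type injured list and 39.8 in the wild-type sham list. In Silc1-/- the injured list ranked 15 of the 40 loci above the sham list, with a median difference of −6.82 percentile points, where 46.7% of all shared loci ranked higher. In wild type 24 of 40 ranked higher in the injured list, with a median difference of 3.04 points, against 50.7% of all shared loci. The Silc1-/- injured list gave the lowest of the 4 ranks at 21 of the 40 loci, where that held for 34.3% of all shared loci. Among the 8 shared loci at ends of the 10 genes, the lowest rank was in the Silc1-/- injured list at 5 (the −0.66 kb site of Egr1, both ends of Ier2, and the ends of Arc and Crem) and in the Silc1-/- sham list at 3 (the −0.12 kb site of Egr1 and the higher ends of Ier3 and Dusp1). At those last 3 the Silc1-/- injured list had the highest of the 4 ranks. That list ranked highest at 9 of the 40 loci and at 27.8% of all shared loci. The Silc1-/- sham list ranked lowest at 8 of the 40 and at 22.9% of all shared loci. The median percentile of the 8 end loci was 34.4 in the Silc1-/- injured list and 24.9 in the Silc1-/- sham list. These medians had the opposite order to those over all 40 loci, but the ranks compared locus by locus did not. The Silc1-/- injured list ranked below the Silc1-/- sham list at 5 of the 8 end loci and above it at 3. Over all 40 loci it likewise ranked below at most, 25, and above at 15. In wild type the end loci, like all 40, had a higher median in the injured list. Several loci lie near the same gene, so the 40 values are not independent, and no test was made.

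**Figure D4:**
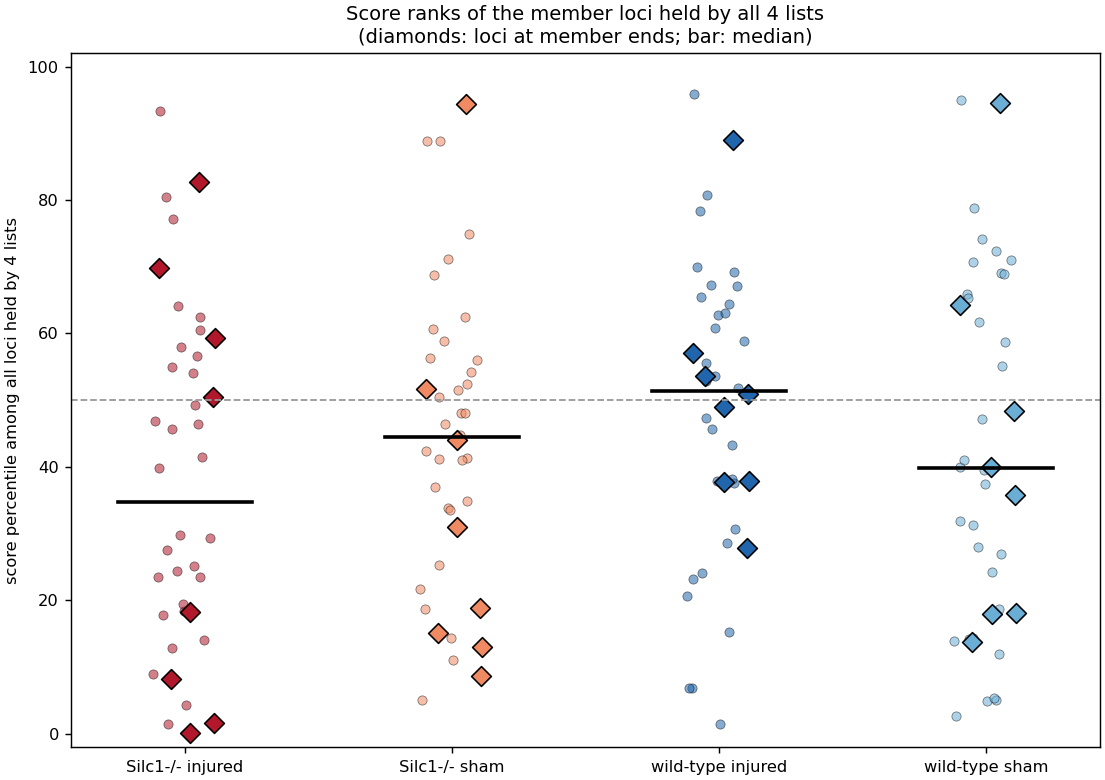
Score percentile of each of the 40 loci held by all 4 lists, ranked within its list among all 14347 loci that the 4 lists share. Diamonds are loci within 1 kb of an end of the 10 genes, circles the other loci, bars the medians and the dashed line the middle rank. The median bar is at 34.8 for Silc1-/- injured, 44.4 for Silc1-/- sham, 51.4 for wild-type injured and 39.8 for wild-type sham ganglia.

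Depth is unknown. Summits at marker genes of cell types were counted, but such counts do not measure cell makeup. The lowest deposited scores were just above 1.3 in all lists, while the median score was 4.77 in the Silc1-/- injured list, 4.97 in the Silc1-/- sham list, 5.72 in the wild-type injured list and 6.33 in the wild-type sham list. Of 10 sensory neuron markers, 5 had a summit at an end in the Silc1-/- injured list, 7 in the Silc1-/- sham list, 6 in the wild-type injured list and 4 in the wild-type sham list. Isl1, Scn9a and Tubb3 had one in all 4 lists, and Prrxl1 and Calca in none. Of all protein-coding genes, 45.6% to 51.9% had one, depending on the list. Within 50 kb of the neuronal markers lay 32 summits of the Silc1-/- injured list, 60 of the Silc1-/- sham list, 34 of the wild-type injured list and 26 of the wild-type sham list. Of 8 glial markers the counts were 2, 3, 5 and 2 in that order, with 40, 53, 52 and 27 summits within 50 kb. Macrophage markers had 1 of 8 in the wild-type injured list and 0 in the others, endothelial markers 3 of 6 in the wild-type injured list, 1 in the wild-type sham list and 0 in both Silc1-/- lists, and skeletal muscle markers 2 or 3 of 6 in every list. Within 50 kb of the macrophage markers lay 28 summits of the Silc1-/- injured list, 35 of the Silc1-/- sham list, 45 of the wild-type injured list and 23 of the wild-type sham list. For the endothelial markers these were 18, 26, 25 and 13, and for the muscle markers 23, 19, 27 and 16. Scaled to list length, wild-type injured over wild-type sham had a median log2 ratio of 0.51 for macrophage markers, with 4 of 8 higher past 1.5-fold. It was 0.50 for endothelial markers with 2 of 6, 0.20 for glial markers with 3 of 8, and 0 for muscle markers with 2 of 6. Neuronal markers had −0.07 with 1 of 10, and the 10 genes −0.28 with 0. Over all genes the median was −0.07, with 18.2% higher past 1.5-fold. Silc1-/- injured over Silc1-/- sham had medians of −0.22 for neuronal, −0.13 for macrophage, −0.09 for glial, −0.02 for endothelial and 0.27 for muscle markers. The 10 genes had 0.01, beside 0.02 over all genes. The part of depth or cell makeup in the ranks was not tested.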

How the data were processed

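ATAC-seq libraries of mouse DRG, 3 in each of 4 groups by the genotype and treatment labels, entered as 1 summit list for each group. Bowtie2, MACS2 and the build mm10 are named, with no roles, per the submitters' processing notes. Not given in the sources used here are versions, read filters, any shift of insertion positions and whether libraries were pooled. The deposited score of each summit is on a −log10 scale as the authors' peak caller wrote it, of a p-value or q-value. Each deposited name is unique and has no sub-summit letter, and peak widths are not in the files. Read depth is unknown.

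Coordinates count from 1. Gene positions are those of RefSeq on GRCm38.p6, the same build as mm10, which gives no strand, so either gene end was used, "lower" and "higher" by coordinate. Distances outside the lower end and inside the higher end are negative. Summits within 200 bp of the next were joined to loci, and percentiles rank the highest summit of a list in a locus among the loci of all 4 lists. Ratios have Wilson intervals at 95%. All 10 genes were named, with each locus within 1 kb of an end, the highest one farther away, and those of both injured or both sham lists alone; others that the text gives, such as the Egr1 site at 1.3 kb and the inner Maff, Npas4 and Nr4a1 sites, were chosen after their values were seen, as was the count of at least 3 loci within 5 kb. The members and lists were chosen with earlier results of these data known. Cyr61, Mkl1 and Mkl2 are synonyms in the table of Ccn1, Mrtfa and Mrtfb.

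Counting and joining were tested on simulated data with planted summits, all of which were recovered. With 1 list per group, no p-value was computed. Alternatives were other joining distances, gene-end distances, neighbourhoods, score minimums, scalings (for calls per gene added after seeing the data), a pseudocount of 0.5 and lists of equal length. Python 3.11.15, numpy 2.4.6, pandas 2.3.3, scipy 1.17.1 and matplotlib 3.10.9 were used.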

Additional observations from a re-analysis of the deposited data

Results flagged for a closer look

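The scaled ratio of summits near the 10 genes, injured over sham, was 1.05 in Silc1-/- and 0.801 in wild type, on different sides of 1. The median difference in score percentile, injured minus sham, over the 40 loci in all 4 lists was −6.82 points in Silc1-/- and 3.04 in wild type. Both are listed because the contrast pointed in opposite directions in the genotypes. For the ratio this did not hold with lists of equal length (0.807 in Silc1-/- and 0.894 in wild type) or at a score of at least 5 (0.794 and 0.975), and scaling to gene-end summits swapped the sides (0.918 and 1.09). Neither difference was tested, since each group has 1 list.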

How the results depend on the processing

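No paired analysis was possible because each group has 1 list. Over all alternatives, 73 values stayed within the range set for them, 49 moved and 1 reversed. These labels do not track the side of 1 on which a ratio falls. Injured over sham in Silc1-/- was 1.05, and 0.781 without scaling still counted as within range. It was 1.06 within 10 kb and below 1 in the other alternatives. In wild type it was 0.801, and 1.29 without scaling counted as moved. With gene-end scaling it was 1.09, within range, and the other alternatives stayed below 1. Causes were not tested beyond what the setting itself removes or adds. In the order Silc1-/- injured, Silc1-/- sham, wild-type injured and wild-type sham, genes with a summit at an end numbered 3, 3, 5 and 3 at a score of at least 10. At a score of at least 5, Silc1-/- sham and wild-type sham had 5 each. With the gene start only, 4 of the 5 genes with a promoter entry had one in the Silc1-/- injured list. Shares of all genes under these settings are not given here. Summits near the genes numbered 26, 33, 37 and 29 within 10 kb, and 13, 27, 36 and 18 at a score of at least 10. Within 100 kb, Silc1-/- sham had 119, wild-type injured 137 and wild-type sham 100. At a score of at least 5, Silc1-/- injured had 31, wild-type injured 56 and wild-type sham 37. Without scaling, Silc1-/- sham over wild-type sham reversed to 1.11 and wild-type injured over sham was 1.29. Silc1-/- sham over wild-type sham was 0.947 scaled to gene-end summits and 0.955 at a score of at least 5. Scalings chosen after seeing the data changed the number of genes past 1.5-fold. Without scaling, 3 were higher and 0 lower for injury in wild type, beside 43.8% and 3.51% of all genes. For injury in Silc1-/-, 2 were lower, beside 34.8%. For Silc1-/- over wild type, 1 was higher and 0 lower in sham ganglia, beside 46.5% and 4.10%. In injured ganglia 5 were lower, beside 32.9%. With gene-end scaling, 0 were lower for injury in wild type and for Silc1-/- sham over wild-type sham, beside 5.03% and 4.60%. Loci in all 4 lists fell to 18 of 152 with joining at 50 bp and 20 of 69 at a score of at least 5, and loci of 1 list were then 86 and 20. At that score any list held 69 loci, and both Silc1-/- lists alone 0. Both injured lists alone held 1 locus at 50 bp and at that score, and 0 with equal list lengths. Both sham lists alone held 1 at 500 bp, 1000 bp and that score, and 4 with equal lengths. Both Silc1-/- lists alone held 3 at 50 bp and 2 at 1000 bp, and both wild-type lists alone 2 at 500 bp and 1 at 1000 bp. The unknown depth limits any reading of a missing summit.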

Other observations

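A list of 22 other early response genes, among them Egr2, Nr4a2, Nr4a3, Dusp6, Btg2, Homer1, Per1 and Sik1, had a summit at a gene end for 16 genes in the Silc1-/- injured list, 19 in the Silc1-/- sham list, 19 in the wild-type injured list and 18 in the wild-type sham list, and for 16 in all 4 lists. Over all protein-coding genes the shares were 45.6%, 50.9%, 51.9% and 46.2% in that order, and 40.8% in all 4 lists. Egr2, a factor of myelinating Schwann cells, and Mcl1, a survival gene, had none in any list. Sik1, a kinase that restrains CREB-driven transcription, had 2 summits within 50 kb in the Silc1-/- injured list, 1 in the Silc1-/- sham list, 8 in the wild-type injured list and 5 in the wild-type sham list. Ier5, a stress response gene, had 3 in the Silc1-/- injured list, 5 in the Silc1-/- sham list, 11 in the wild-type injured list and 4 in the wild-type sham list. These genes were picked after their values were seen, and the counts are not scaled.

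The upstream regulators, 17 genes for CREB, SRF and MEF2 factors, their coactivators and kinases, had an open end for 15 genes in the Silc1-/- injured list, 15 in the Silc1-/- sham list, 14 in the wild-type injured list and 14 in the wild-type sham list, and 14 in all 4 lists, beside the same shares over all genes. Mef2c and Camk4 had none in any list, and Mef2a had a summit at an end in both Silc1-/- lists and in neither wild-type list.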
